A study of Gallus gallus with 4 samples.

Results

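MSGN1-positive cells of the caudal paraxial mesoderm (PXM), the unsegmented tissue from which somites are cut, were selected on their raw counts of unique molecular identifiers (UMIs, each standing for 1 captured mRNA molecule). A cell was included when it held at least 2500 UMIs in all, at least 2 UMIs of MSGN1, none of MEOX1, none of SOX2 and fewer than 10 of CHRD. The selection took 3939 of the 25379 cells with at least 2500 UMIs (27391 cells were in the matrix). The 4-somite (4S) and the 7S library gave 834 cells each, the 10S library 1277 and the 13S library 994. The cells came from wild-type chick (Gallus gallus) embryos with no treatment, as tissue caudal to and including the third somite, with at least 4 embryos pooled for each stage. Droplet-based 3′ libraries were made, 1 for each of the 4 stages, so no comparison between stages has a replicate. Levels are given as CPM, the UMIs of a gene per 1000000 UMIs of the summed cells of a group in a library.

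MSGN1 is a bHLH transcription factor that marks cells after they leave the primitive streak or tailbud and before they form somites. In vertebrates, WNT and FGF signals from the caudal end keep this tissue unsegmented, the Notch pathway oscillates in it, and retinoic acid made in somites opposes FGF at its anterior end. TBX6, a T-box factor, and DLL1, a Notch ligand, are the other classical markers of the tissue. The progenitors that feed it, the neuromesodermal progenitors (NMPs), carry both SOX2 and TBXT, and the somites that it forms carry MEOX1 and TCF15.

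The cells were chosen on MSGN1, MEOX1, SOX2 and CHRD, and their values are a description. The included cells held 2 to 24 UMIs of MSGN1, with a median of 3. Just inside the limit, 1248 cells had exactly 2 UMIs of MSGN1 and their summed TBX6 level was 46.8 CPM. The 2691 included cells with 3 or more had a TBX6 level of 74.6 CPM. Just outside, 2295 cells with exactly 1 UMI that met the other terms had 33.1 CPM of TBX6, and the 12542 cells with none had 8.48 CPM. DLL1 followed the same order at 325, 443, 242 and 109 CPM. The MEOX1 term alone kept out 1232 cells, in which TBX6 stood at 103 CPM, DLL1 at 640 CPM and RIPPLY2, a gene of the anterior end of the tissue, at 34.6 CPM, against 7.82 CPM of RIPPLY2 in included cells with 3 or more MSGN1 UMIs. SOX2 alone kept out 17 cells and CHRD alone kept out 9. The group therefore leaves out MSGN1 cells in which MEOX1 was already detected.

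TBX6 and DLL1 were not used by the selection. Both were detected more often in these cells than in the pool of all other cells and in the blood and vessel cells. Within that pool, the cells that the MEOX1 term alone kept out had higher levels than the included cells, at 103 CPM of TBX6 and 640 CPM of DLL1. After each cell was thinned to 2500 UMIs, TBX6 was detected in 14.8% of the MSGN1-positive cells, 4.29% of all other cells and 1.18% of the blood and vessel cells. DLL1 was detected in 55.8%, 24.6% and 7.52% of these groups. The blood and vessel cells, which should lack TBX6, were 851 cells with at least 2 UMIs of LMO2 and 1 of ETS1. The 45 MSGN1-positive cells with these counts were left out of them, which can lower their shares for TBX6 and DLL1. Markers of other tissues were detected in the MSGN1-positive cells. The summed level of the neural list ranged from 7.14 to 29.1 CPM over the 4 libraries in MSGN1-positive cells and from 54.0 to 200 CPM in the other cells, and that of the surface ectoderm list from 103 to 229 CPM against 376 to 651 CPM. Lateral plate markers ranged from 53.5 to 172 CPM against 206 to 265 CPM and blood and vessel markers from 22.5 to 174 CPM against 204 to 361 CPM, with the highest values of the MSGN1-positive cells at 4S or 7S. Notochord markers ranged from 3.15 to 32.2 CPM against 50.9 to 91.8 CPM and endoderm markers from 82.1 to 127 CPM against 134 to 300.2 CPM. Most of the endoderm sum in MSGN1-positive cells came from CXCR4, whose levels are given below. It was the 1 gene of the 7 tested in that list that was higher than in the other cells, and 6 were lower. The intermediate mesoderm list was closest to the other cells, at 26.2, 53.3, 30.7 and 15.7 CPM against 28.7, 59.8, 39.5 and 36.6 CPM. Only 1 blood and vessel marker was at 0 in all MSGN1-positive cells, and each list was lower in the MSGN1-positive cells than in the other cells of each library. At least 1 of 8 markers of other tissues was detected, on raw counts without thinning, in 1202 MSGN1-positive cells (30.5%). This share depends on depth, and it was not computed for the other cells, so it has no background. The part of these 1202 cells in the results was measured by leaving them out.

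MSGN1-positive cells made up 20.7% of the 4S library (19.5 to 22.0% as exact 95% Clopper-Pearson bounds). The share in the 7S library was 14.1% (13.2 to 15.0%), and those of the 10S and 13S libraries were 14.7% (14.0 to 15.5%) and 14.7% (13.8 to 15.5%). All intervals in the text cover counting error only. Among all other cells the median was 8482 UMIs at 4S and 3706 at 7S, so the limit of 2 UMIs was met at different depths. With the rule applied to cells thinned to 2500 UMIs the shares were 9.17%, 9.51%, 7.15% and 7.04%. On raw counts the 4S share was above those of all later stages. After thinning it was above those of 10S and 13S beyond the counting intervals and not above that of 7S, and with 1 library per stage this is a description. The 2012 cells under 2500 UMIs were all in the 7S library.

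**Figure D1:**
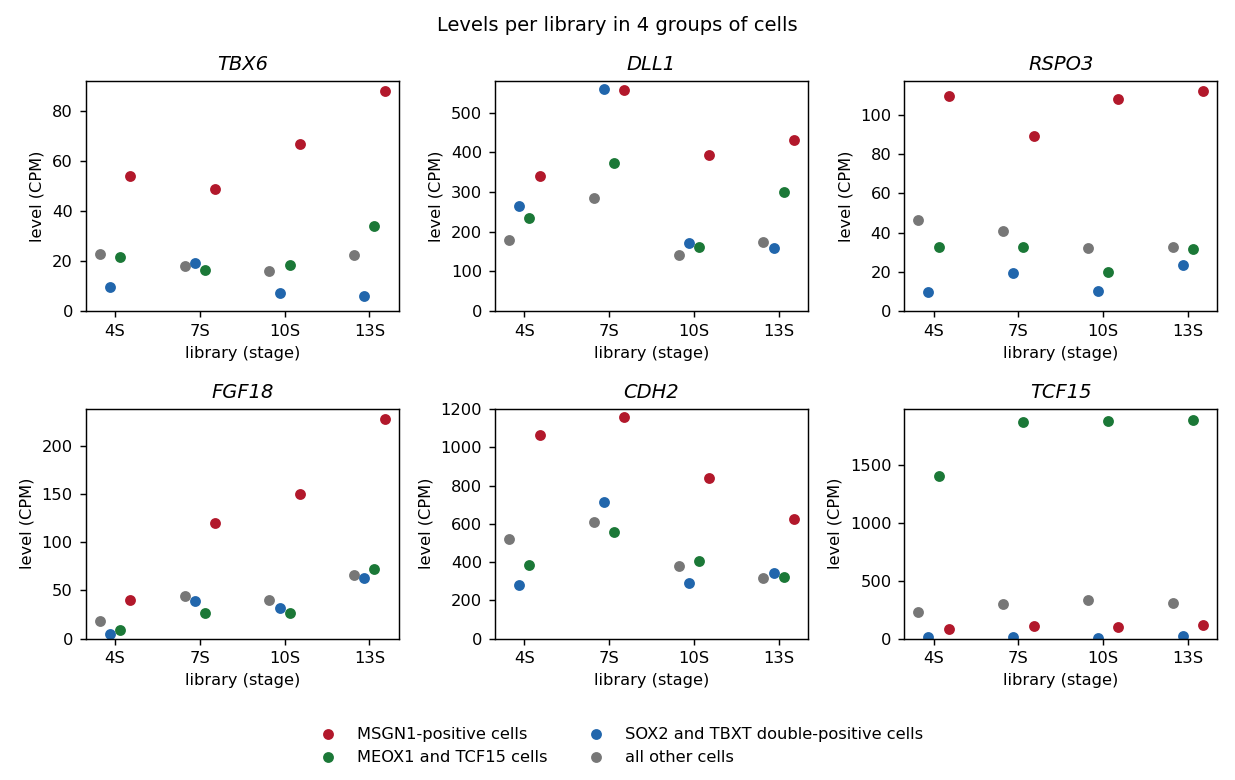
Level (CPM, linear axes from 0) of named genes in the 4 libraries, with 1 point per library for MSGN1-positive cells, all other cells, SOX2/TBXT cells and MEOX1/TCF15 cells. TBX6 lay between 48.9 and 87.7 CPM in MSGN1-positive cells and between 15.8 and 22.7 CPM in all other cells, with no overlap between the groups.

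The first comparison asked how MSGN1-positive cells differ from all other cells of the same embryos. TBX6, DLL1, the WNT and FGF ligands WNT3A, WNT5A, FGF8 and FGF18, CDH2 and 14 of 27 HOX genes tested were higher. FGF receptor genes, 5 of 12 retinoic acid genes, 7 of 15 front and somite genes and the epithelial genes CDH1 and EPCAM were lower. Summed counts of the 2 groups in each library were fitted with edgeR's quasi-likelihood test with the library as a block, and p-values were adjusted over all genes (Benjamini-Hochberg, threshold 0.05). Of 11525 genes tested, 1276 (11.1%) were higher in MSGN1-positive cells and 1558 (13.5%) lower, and the median log2 difference over all of them was 0.01. Scaling by total UMIs in place of TMM moved the split to 772 higher and 1981 lower, and leaving out the 10S library left 553 and 867. The other cells include cells with MSGN1 that the rule kept out.

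TBX6 was at 54.0, 48.9, 66.5 and 87.7 CPM in the 4S, 7S, 10S and 13S libraries, the order of all values below, against 22.7, 18.1, 15.8 and 22.2 CPM in all other cells. The lowest MSGN1-positive value lay above the highest value of the other cells, and the log2 difference was 1.78 (SE 0.13, adjusted p = 1.36e-05, edgeR). With every cell that held MSGN1 removed from the other cells it was 2.72. DLL1 was at 341, 558, 394 and 432 CPM against 180, 285, 141 and 175 CPM. It was higher in all 4 libraries, without overlap (log2 difference 1.23, SE 0.08). CDX4, a caudal homeobox factor expressed throughout the caudal end, was at 328 to 492 CPM against 237 to 326 CPM (log2 difference 0.67, SE 0.04). TBX6, DLL1 and CDX4 were the 3 higher genes of the 5 tested in the preset list of paraxial mesoderm markers. SNAI1, given below, was the 1 lower gene of that list.

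Genes outside the preset lists led the ranking. KCNS3 encodes a modifier subunit of voltage-gated potassium channels. It had the largest log2 difference, 2.34 (SE 0.21), among genes with a symbol that were higher in 4 of 4 libraries and whose mean reached 20 CPM. It was at 4.17, 13.1, 37.9 and 77.3 CPM against 1.25, 6.43, 6.59 and 12.1 CPM, so it was higher within each library while the ranges over stages overlapped. PRLH, a prolactin-releasing neuropeptide, rose over the same range, from 3.36 CPM at 4S to 68.0 CPM at 13S, against 2.16 and 22.0 CPM in the other cells (log2 difference 1.75). KLF15, a zinc-finger factor, had the opposite order over stages and the same direction of difference, with 78.8, 77.3, 26.7 and 25.7 CPM against 27.1, 32.6, 9.60 and 8.88 CPM (1.51, SE 0.07). C10H15ORF59 (2.02), the glycosyltransferase gene B3GALT5 (1.77), the cytoskeletal adaptor EPB41L3 (1.75), PDZRN3 (1.56) and ASL1 (1.53) completed the higher genes. All were higher in 4 of 4 libraries.

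Of the 38 genes of the WNT pathway list, 34 were found by name and 33 passed the filter on low counts, of which 13 were higher and 6 lower, with a median log2 difference of 0.06. Among the ligands and their agonists, RSPO3, an R-spondin that amplifies WNT signalling, was at 110, 89.3, 108 and 112 CPM against 46.4, 41.0, 32.1 and 32.4 CPM. Its lowest library stood well above the highest of the other cells (log2 difference 1.56, SE 0.11). WNT5A, a ligand of the non-canonical branch, was at 225, 273, 273 and 241 CPM against 150, 174, 161 and 169 CPM (0.69, SE 0.04). WNT3A, a canonical ligand of the streak and tailbud, was at 26.1 to 46.5 CPM against 17.2 to 29.3 CPM, higher in each library although the ranges overlapped (0.89, SE 0.09). The receptor gene FZD10 was higher (1.03), as were the transcription factor LEF1 (0.58) and the feedback gene NKD1 (0.73). The lower genes were led by the secreted WNT antagonists SFRP1 (−2.46) and SFRP2 (−1.21) and by the receptor FZD3 (−1.32). SFRP2 was at 23.5 to 34.0 CPM against 66.3 to 74.1 CPM, without overlap.

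The FGF pathway list had a median log2 difference of 0.54. Of 28 genes, 25 were found and 24 tested, 14 of them higher and 5 lower. All 5 lower genes encode receptors or a receptor-like protein, and 6 of the higher genes encode ligands. FGF18 was at 40.2, 120, 150 and 228 CPM against 18.0, 44.4, 39.7 and 66.4 CPM. It was higher within every library, and the difference was wider at 13S than at 4S in CPM (log2 difference 1.68, SE 0.10, adjusted p = 6.13e-06, edgeR). FGF10 behaved alike at 13.2, 61.5, 65.3 and 86.9 CPM against 6.75, 23.0, 21.7 and 26.7 CPM (1.56, SE 0.10). FGF19 was at 145, 164, 147 and 117 CPM against 82.2, 118, 63.8 and 59.0 CPM (0.94, SE 0.10), and FGF8, the ligand most closely tied to the caudal gradient, was at 22.3, 33.9, 68.2 and 100 CPM against 15.8, 31.5, 43.3 and 58.3 CPM (0.63, SE 0.09). The intracellular feedback and target genes ETV5 (0.77), DUSP5 (0.74) and SPRY2 (0.57) were higher.

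Of the receptors, FGFR3 stood furthest apart. It was at 21.9, 29.2, 11.3 and 6.90 CPM in MSGN1-positive cells and 209, 466, 257 and 135 CPM in the other cells. The groups were separated by a wide gap in every library (log2 difference −3.90, SE 0.16, adjusted p = 5.18e-07, edgeR). FGFRL1 (−2.61), FGFR2 (−2.00) and FGFR4 (−1.19) were lower too, and FGFR1, the receptor most associated with this tissue, was at 103, 242, 101 and 99.8 CPM against 122, 265, 122 and 128 CPM (−0.19, SE 0.04). Its call was lost without the 10S (−0.18) or the 13S library (−0.15), and its direction turned when the cells were chosen on thinned counts (0.036).

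The Notch list was balanced, with 6 of 23 tested genes higher and 6 lower (27 of 29 found) and a median of 0.03. DLL1 had the largest increase, and HEYL, a target of the pathway, was higher too (0.44). The feedback inhibitor NRARP (0.75) and HES1 (0.60) passed over 4 libraries and lost their calls without the 10S library (0.73 and 0.66) or the 13S library (0.65 and 0.36). HES5, a neural target of the pathway, was the largest decrease, at 1.62 to 8.81 CPM against 9.12 to 112 CPM (−3.49), followed by the ligand JAG2 (−1.09). The receptor NOTCH1 was at 262, 474, 239 and 193 CPM against 270, 491, 216 and 194 CPM and did not pass the test (0.07, adjusted p = 0.248, edgeR). LFNG, a glycosyltransferase whose expression cycles in this tissue, did not pass either (0.03, adjusted p = 0.922, edgeR). Its direction differed between libraries beyond the counting intervals. It was at 1.12 and 1.38 times the other cells at 4S and 13S and at 0.708 and 0.767 times at 7S and 10S.

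In the retinoic acid list, 15 of 16 genes were found and 12 tested, of which none was higher and 5 were lower, with a median of −0.98. The retinol dehydrogenase RDH10 was at 58.8, 12.6, 7.32 and 6.54 CPM against 87.5, 81.9, 71.6 and 52.3 CPM (−1.95, SE 0.37, and −2.99 without the 4S library). Its 4S value alone came within the range of the other cells. The receptor and target gene RARB was at 7.65, 8.47, 5.24 and 4.72 CPM against 22.8, 27.2, 24.9 and 21.7 CPM (−1.88, SE 0.12), without overlap. DHRS3 (−1.71, and −2.56 without the 4S library) and the degrading enzyme CYP26A1 (−1.68) were lower. ALDH1A2, the main retinoic acid synthesis enzyme of the trunk mesoderm, was higher than in the other cells at 4S and lower at the 3 later stages and did not pass over the 4 libraries (−1.54, adjusted p = 0.0826, edgeR).

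Genes of the determination front and somites were lower or did not pass. Of 22 genes, 19 were found and 15 tested, of which none was higher and 7 lower, with a median of −1.09. RIPPLY2, a repressor that ends TBX6 activity at the front, was at 8.34, 8.47, 4.75 and 8.11 CPM against 47.6, 48.1, 18.3 and 62.8 CPM (−2.47, SE 0.12), with no overlap. TCF15, a somite bHLH factor, was at 78.8, 113, 97.0 and 116 CPM against 228, 301, 335 and 306 CPM (−1.48, SE 0.06), so it remained detected at a lower level. TWIST1 (−3.31, and −5.03 without the 4S library) and PAX7 (−2.43) were lower. MESP1, which is transcribed in the nascent mesoderm as well as at the front, was at 131, 41.0, 18.9 and 17.3 CPM against 85.7, 69.3, 24.1 and 28.3 CPM, higher at 4S alone, and did not pass (−0.12, adjusted p = 0.706, edgeR). The rule's term on MEOX1 removed cells near the front, so these values are tied in part to how the cells were chosen.

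Adhesion and matrix genes were lower more often than higher, with 6 of 34 tested genes higher and 17 lower and a median of −0.34 (34 of 37 found). CDH2, N-cadherin, was at 1063, 1158, 841 and 623 CPM against 519, 610, 381 and 318 CPM. Every MSGN1-positive library lay above every library of the other cells (log2 difference 1.08, SE 0.04, adjusted p = 1.89e-07, edgeR). The chemokine receptor CXCR4 was at 71.3, 106, 113 and 70.2 CPM against 45.8, 51.3, 49.3 and 35.7 CPM (1.03, SE 0.08), while its ligand CXCL12 was at 4.24 to 14.5 CPM against 55.9 to 76.3 CPM (−3.00, SE 0.20). HAS2, a hyaluronan synthase, was higher (0.64). The epithelial genes CDH1 (−2.60), CLDN1 (−2.57) and EPCAM (−0.91) were lower. So was SNAI1 (−0.50), which is associated with mesenchyme and is also on the list of paraxial mesoderm markers.

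Of 24 genes of the axial progenitor list, 23 were tested, with 10 higher and 9 lower and a median of −0.19. The higher genes included TBXT (0.46), CDX4 and WNT3A, and the lower genes NOTO, a notochord factor (−4.66), NKX1-2 (−2.26) and SOX3 (−2.12). By the ranking rule, the largest decreases were those of the activin antagonist FST (−5.03), NOTO, IRX1 (−4.51) and the endodermal FOXA1 (−4.46). FGFR3, the neural PAX6 (−3.89), CDH20 (−3.84) and OLFML3 (−3.76) completed them. In the MEOX1/TCF15 somite cells described below, FST had a mean of 786 CPM and CDH20 of 303 CPM, and FGFR3 was high too. The rule barred MEOX1 in MSGN1-positive cells, so the values of FST, CDH20 and FGFR3 are tied in part to how the cells were chosen. IRX1 was at −5.79 without the 7S library and CDH20 at −4.80 without the 4S library. FST was at 2.66 to 4.10 CPM in MSGN1-positive cells and at 43.7 to 152 CPM in the other cells.

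HOX genes were higher more often than the background. Of 37 HOX genes, 27 were tested, with 14 higher and 2 lower and a median of 0.30. The higher genes ran from HOXB1 to HOXB8 in paralogue number and included HOXB4 (0.92, SE 0.06), HOXB8 (0.79, SE 0.12), HOXB1 (0.72, SE 0.06) and HOXA4 (0.71, SE 0.05). HOXB4 was at 62.8, 65.3, 116 and 166 CPM against 35.1, 41.8, 63.3 and 83.1 CPM. It was higher in each library, with ranges that overlapped, and the level changed with stage in both groups. The lower genes were HOXB5 (−0.38) and HOXA13 (−1.85), of which HOXB5 did not pass when 1 UMI of MSGN1 was enough for inclusion (−0.13). HOXA7 was at 34.2, 289, 726 and 1123 CPM against 90.2, 418, 727 and 1048 CPM and did not pass (−0.30, adjusted p = 0.275, edgeR).

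**Figure D2:**
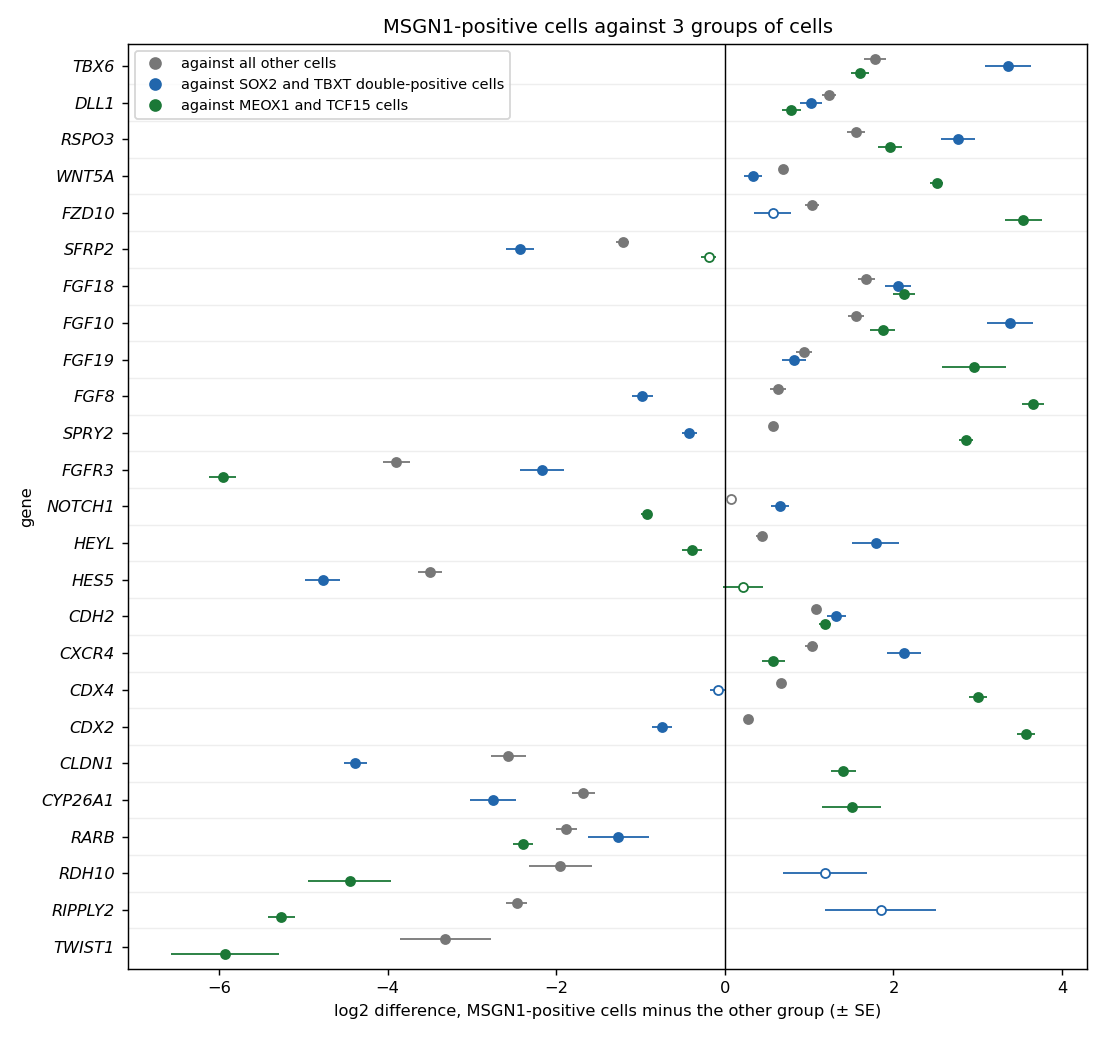
Log2 difference (MSGN1-positive cells minus the other group, ± SE) of named genes against all other cells, SOX2/TBXT cells and MEOX1/TCF15 cells, where open circles mark an adjusted p of 0.05 or more and a gene without a point was not tested. TBX6 lay right of 0 in all 3 comparisons (1.78, 3.36 and 1.60), and FGF8 lay right of 0 against MEOX1/TCF15 cells (3.65) and left of it against SOX2/TBXT cells (−0.98). SOX2/TBXT and MEOX1/TCF15 cells had to lack MSGN1, so the TBX6 values against them are tied in part to that choice.

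The next comparisons set the cells beside the neighbouring states on either side of them, SOX2/TBXT cells (at least 1 UMI of each, no MSGN1 and fewer than 10 UMIs of CHRD, the profile of NMPs) and MEOX1/TCF15 cells (at least 2 UMIs of MEOX1, at least 1 of TCF15 and no MSGN1, the profile of somites). The MSGN1-positive sums are shared by all these comparisons, so the values stand side by side and are not independent of each other. Both sides of each comparison were chosen on marker genes. Differences in neural, axial progenitor, front and somite genes are therefore tied in part to how the cells were chosen. Both neighbouring groups also had to lack MSGN1, so differences in genes that go with MSGN1, such as TBX6 and DLL1, are tied in part to that choice. The 1232 cells kept out by MEOX1 alone, at 103 CPM of TBX6 and 640 CPM of DLL1, were in none of these groups.

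SOX2/TBXT cells were few, 20, 21, 76 and 96 from the earliest to the latest stage, and their UMIs limit which low genes could be tested. Of 7890 genes, 479 (6.07%) were higher in MSGN1-positive cells and 345 (4.37%) lower. Scaling by total UMIs gave 329 higher and 471 lower, without the 10S library 243 and 167 were called, and with the cells chosen on thinned counts 142 and 100. Of 19 axial progenitor genes tested, none was higher and 13 were lower, and all 4 neural markers tested were lower. The rule barred SOX2 in MSGN1-positive cells, and SOX2/TBXT cells had to hold it. These counts are tied in part to that choice. Of 8 front and somite genes tested, 4 were higher and 1 lower. Of 5 paraxial mesoderm markers tested, 4 were higher and none lower. CLDN1, a tight-junction gene, was at 112, 60.9, 32.2 and 11.5 CPM against 1573, 1485, 858 and 399 CPM (log2 difference −4.38, SE 0.13, adjusted p = 1.46e-21, edgeR). In both groups it was lower at each later stage, and the gap held throughout. NKX1-2, a homeobox gene of the NMP region, was at 0.579 to 1.37 CPM against 19.2 to 41.8 CPM (−5.02), and HES5 at 1.62 to 8.81 CPM against 77.0 to 261 CPM (−4.77). NOTO (−5.37), NEFM (−3.57), F2RL1 (−2.92), SP8 (−2.08) and CDX2 (−0.74) were lower as well. CDX4 did not pass, at 328, 492, 462 and 385 CPM against 443, 463, 554 and 399 CPM (−0.08, adjusted p = 0.656, edgeR). APOH (−5.13) and CA2 (−4.81, and −4.15 without the 4S library), outside the lists, completed the largest decreases.

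TBX6 was at 9.62, 19.3, 7.14 and 6.12 CPM in SOX2/TBXT cells, from 15 UMIs in all, below every MSGN1-positive library (log2 difference 3.36, SE 0.27). RSPO3 was at 9.62 to 23.4 CPM there (2.77, SE 0.20, and 3.37 without the 13S library), again without overlap, and LEF1 at 43.3 to 116 CPM against 106 to 361 CPM (1.46, SE 0.12). WNT3A did not pass (0.07, adjusted p = 0.904, edgeR) and WNT8A was lower (−1.24). Of 23 WNT genes tested, 5 were higher and 5 lower. Of 18 FGF genes, 5 were higher and 5 lower, and the ligands moved in opposite directions. FGF10 (3.38) and FGF18 (2.06) were higher, the latter at 40.2 to 228 CPM against 4.81 to 63.2 CPM, while FGF8 was at 22.3, 33.9, 68.2 and 100 CPM against 38.5, 77.2, 159 and 191 CPM, lower in every library (−0.98, SE 0.12). FGFR3 was lower too (−2.17), a call lost on thinned counts (−0.87).

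Of the Notch genes against SOX2/TBXT cells, 3 of 17 were higher, DLL1 (1.03), HEYL (1.79) and NOTCH1 (0.66), and 2 lower. CDH2 was at 279, 714, 290 and 343 CPM there (1.32, SE 0.12) and CXCR4 at 9.64 to 24.5 CPM (2.13, SE 0.20). SNAI1 (1.56) and FN1, fibronectin (1.64), were higher and EPCAM lower (−0.84). On thinned counts HEYL (0.71) and SNAI1 (0.86) did not pass. TCF15 was at 8.57 to 23.4 CPM in SOX2/TBXT cells against 78.8 to 116 CPM (2.76, SE 0.20). CYP26A1, which clears retinoic acid, was at 14.4, 125, 44.3 and 61.2 CPM against 4.52, 8.74, 10.0 and 6.05 CPM (−2.75, SE 0.27). The proprotein convertase PCSK5 was at 55.2 to 93.3 CPM against 2.86 to 9.64 CPM (4.64, SE 0.30, from 7 UMIs in the SOX2/TBXT cells). FOXC2, GAS6, NPY2R, NRP1 and B3GALT5 met the same rule with 1 to 4 UMIs in the SOX2/TBXT cells, too few for a fold to be given.

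Of 23 HOX genes tested against SOX2/TBXT cells, 1 was higher and 5 lower. HOXA7 was at 168, 1495, 2071 and 2796 CPM in SOX2/TBXT cells against 34.2, 289, 726 and 1123 CPM (−1.59, SE 0.11). The SOX2/TBXT value exceeded the MSGN1-positive value at each stage, and the MSGN1-positive cells at 10S lay between the SOX2/TBXT cells of 4S and 7S. HOXB9 (−1.78) and HOXB7 (−1.19) were lower alike, whereas HOXD8 was higher (0.76), at 2.07 without the 13S library, a call lost without the 10S library (0.46) and turned in direction on thinned counts (−0.70). These HOX differences compare whole groups, which may differ in the axial level their cells were taken from, and axial level was not recorded.

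Against the 2552 MEOX1/TCF15 cells (338, 539, 1000 and 675 by stage), 1200 of 9695 genes (12.4%) were higher in MSGN1-positive cells and 1224 (12.6%) lower. Scaling by total UMIs moved the split to 934 and 1521, and leaving out the 10S library to 552 and 627. Here 17 of 20 axial progenitor genes tested were higher and none lower, with a median log2 difference of 3.20 against 0.01 over all genes. CDX2 was at 200, 241, 204 and 165 CPM against 14.5, 27.9, 15.9 and 14.7 CPM (3.57, SE 0.10), and CDX4 at 328 to 492 CPM against 46.1 to 64.2 CPM (3.00, SE 0.11). The groups lay far apart in all libraries. EVX1 (4.41), SP8 (3.89) and TBXT (3.46) had the same direction. KCNS3, outside the lists, was at 4.17, 13.1, 37.9 and 77.3 CPM against 0, 0.451, 0.582 and 2.35 CPM (5.40, SE 0.21). TBX6 was at 21.6, 16.2, 18.2 and 33.8 CPM in MEOX1/TCF15 cells (1.60, SE 0.11) and DLL1 at 234, 374, 161 and 300 CPM (0.79, SE 0.11). Of the 5 paraxial mesoderm markers tested, 3 were higher and 2 lower, the latter SNAI1 and PCDH8.

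WNT and FGF genes differed more from MEOX1/TCF15 cells than from all other cells by their medians, 0.36 and 1.03. WNT3A was at 26.1, 44.3, 40.7 and 46.5 CPM against 0.707, 0.451, 0.727 and 0.981 CPM, from 13 UMIs in the MEOX1/TCF15 cells (log2 difference 5.74, SE 0.18, adjusted p = 9.53e-08, edgeR). WNT5A (2.51), RSPO3 (1.96), FZD10 (3.54) and AXIN2 (1.91) were higher, and 13 of 28 WNT genes were higher and 8 lower. FGF8 was at 2.47, 3.61, 4.80 and 8.24 CPM in MEOX1/TCF15 cells (3.65, SE 0.13), and SPRY2, an FGF feedback inhibitor, at 18.0, 132, 32.6 and 37.7 CPM against 134, 755, 245 and 296 CPM (2.86, SE 0.08). At 7S SPRY2 was at its highest in both groups. Of 21 FGF genes, 13 were higher and 5 lower, the latter the same receptor genes as against all other cells. FGFR3 was at 957, 2416, 998 and 370 CPM in MEOX1/TCF15 cells (−5.96, SE 0.16).

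Retinoic acid and front genes showed the reverse. Of 11 retinoic acid genes, 2 were higher and 7 lower (median −1.05). RDH10 was at 333, 474, 392 and 313 CPM in MEOX1/TCF15 cells (−4.45, SE 0.49, and −5.50 without the 4S library) and ALDH1A2 at 729, 614, 466 and 362 CPM (−3.94, SE 0.77, adjusted p = 0.0056, edgeR). The MSGN1-positive value of ALDH1A2 at 4S, 311 CPM, was the closest to that range, and the log2 difference was −5.17 without the 4S and −3.27 without the 13S library. The higher genes were CYP26A1 (1.50) and RXRA (1.47), which did not pass without the 10S library (1.03 and 1.09). CYP26A1 did not pass without the 7S library either (1.41). Of 14 front and somite genes tested, none was higher and 12 lower (median −3.67). The rule barred MEOX1 in MSGN1-positive cells, and MEOX1/TCF15 cells had to hold it. The front and somite values are tied in part to that choice. RIPPLY2 was at 339, 354, 111 and 454 CPM in MEOX1/TCF15 cells (−5.26, SE 0.16), TWIST1 at 160 to 670 CPM (−5.93, SE 0.64, and −7.63 without the 4S library) and FOXC2 at 292 to 396 CPM (−3.40, SE 0.11).

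In the Notch list, 5 of 22 genes were higher than in MEOX1/TCF15 cells and 9 lower. NOTCH1 was at 262, 474, 239 and 193 CPM against 573, 978, 390 and 399 CPM (−0.93, SE 0.07), lower within every library. LFNG, which did not pass without the 7S (−0.49) or the 10S library (−0.61), and HEY1 (−2.34) were lower and NRARP (1.96) and HES6 (1.82) higher. CDH2 was again higher, at 384, 555, 407 and 321 CPM in MEOX1/TCF15 cells (1.19, SE 0.07), as was FN1 (1.61), and SNAI1 (−1.85) and PCDH8, a protocadherin of the segmenting mesoderm (−1.58), were lower. The bone morphogenetic protein genes BMP2 (2.36), BMP7 (1.96) and BMP4 (1.89) were higher, and their antagonist FST was at 2.66 to 4.10 CPM against 300 to 1139.7 CPM (−7.81, SE 0.17). TBX22 (−7.25), FMOD (−6.89), MUSTN1 (−6.73), CDH20 (−6.65) and RIPPLY3 (−6.41) followed FST among the largest decreases, with 10 to 82 UMIs in all MSGN1-positive cells. Without the 4S library FMOD, CDH20 and RIPPLY3 were at −7.85, −7.54 and −7.06, and without the 10S library MUSTN1 was at −7.49. Of 17 glycolysis genes, 6 were higher and none lower (median 0.15). LDHB, a lactate dehydrogenase subunit, was at 1760, 1693, 2411 and 2236 CPM against 1085, 735, 929 and 1032 CPM (1.15, SE 0.09).

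HOX genes were higher than in MEOX1/TCF15 cells in 17 of 21 tests and lower in none, with a median of 2.10. HOXB9 (4.82), HOXB8 (4.42), HOXA9 (4.33), HOXD9 (4.25) and HOXD8 (4.13) had the largest differences, and HOXA3 (0.69) and HOXB3 (0.78) the smallest of those called, which without the 10S library did not pass (0.57 and 0.65). HOXB8 was at 97.5, 187, 470 and 636 CPM against 3.53, 9.46, 13.2 and 49.3 CPM. MEOX1/TCF15 cells at 13S thus stood below MSGN1-positive cells at 4S.

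The MSGN1-positive cells were then split by TBXT, the T-box factor of the streak, tailbud and notochord, which the selection did not use. After thinning, 61.0% of the 4S cells held TBXT (57.6 to 64.4%), 48.0% of the 7S cells (44.5 to 51.4%), 38.2% of the 10S cells (35.5 to 40.9%) and 45.1% of the 13S cells (41.9 to 48.2%). The share was highest at 4S and lowest at 10S. Sums of the 1845 cells with a TBXT UMI and the 2094 without were compared within libraries. Of 8786 genes tested, 202 (2.30%) were higher with TBXT and 172 (1.96%) lower. The calls rest on the library block: without it, 0 genes passed in edgeR, with 175 genes at an unadjusted p under 0.05, while DESeq2 with the block called 66 higher and 47 lower, and leaving out the 10S library left 76 and 67.

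Cells with TBXT had more of the axial progenitor genes. Of 16 tested, 12 were higher and 2 lower, with a median of 0.64 against −0.00 over all genes. CDX4 was among the lower genes. SP8, a zinc-finger factor, was at 19.7, 61.5, 41.2 and 32.2 CPM with TBXT and 7.62, 27.1, 15.8 and 10.8 CPM without (log2 difference 1.38, SE 0.12). CLDN1 was at 158, 82.7, 46.9 and 14.5 CPM against 41.6, 41.2, 23.1 and 9.05 CPM (1.38, SE 0.11), and the receptor tyrosine kinase gene EPHA1 at 27.6 to 49.4 CPM against 13.5 to 21.1 CPM (1.18, SE 0.11). EPHA1 did not overlap between the groups, while SP8 and CLDN1 did and varied with stage. ADAMTS18 (1.53), WNT3A (0.73), EVX1 (0.48) and CDX2 (0.42) were higher. GCNT1 (1.13), DRAXIN (1.11) and DENND5B (1.10), outside the lists, were higher too.

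FGF genes were higher in 6 of 22 tests and lower in 1. FGF8 was at 28.6, 49.4, 95.4 and 126 CPM with TBXT and 12.6, 19.8, 51.4 and 78.8 CPM without (0.87, SE 0.08). It was higher within each library. FGF19 (0.72), DUSP5 (0.93) and SPRY2 (0.48) had the same direction. In the Notch list 5 of 19 were higher and none lower. DLL1 was at 417, 726, 512 and 491 CPM with TBXT and 225, 405, 321 and 383 CPM without (0.67, SE 0.05, adjusted p = 1.93e-14, edgeR). The lowest DLL1 level with TBXT, 417 CPM, lay just above the highest without it, 405 CPM. TBX6 was at 55.8, 45.4, 60.9 and 82.8 CPM with TBXT and 51.3, 52.1, 70.0 and 91.8 CPM without and did not pass (−0.11, adjusted p = 0.589, edgeR). Of the 5 paraxial mesoderm markers tested, 1 was higher with TBXT, DLL1, and 2 were lower, SNAI1 and CDX4. CYP26A1 was at 6.52, 15.5, 20.2 and 8.31 CPM against 1.47, 2.61, 3.68 and 4.19 CPM, from 52 UMIs in the cells without TBXT (2.02, SE 0.23). MESP1 was at 155, 61.5, 32.7 and 23.8 CPM against 93.2, 22.4, 10.4 and 11.9 CPM (1.01, SE 0.10), higher in every library.

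Cells without TBXT had more TCF15, at 104, 127, 119 and 149 CPM against 62.5, 96.5, 61.9 and 76.6 CPM (log2 difference with minus without TBXT −0.80, SE 0.07). SNAI1, a repressor of cadherin genes, was at 51.6, 65.6, 39.2 and 60.5 CPM against 18.4, 21.8, 16.6 and 32.4 CPM, without overlap (−1.25, SE 0.10). FOXC2 (−1.24), CDH11 (−1.26) and NRP1 (−0.87) were on the same side. So were OSR1 (−1.77), ETS1 (−1.32) and HAND2 (−1.12), which mark intermediate mesoderm, lateral plate or vessel precursors. The summed lateral plate list ranged from 57.4 to 213 CPM in the cells without TBXT and from 48.8 to 144 CPM with it, the intermediate mesoderm list from 20.1 to 67.7 CPM against 10.5 to 37.3 CPM and the blood and vessel list from 22.3 to 240 CPM against 22.8 to 123 CPM. The part of such cells in the TBXT differences was not tested. Of 24 HOX genes, 6 were higher with TBXT and 1 lower, with HOXA7 at 0.57 (SE 0.05) and HOXB9 at 0.72 (SE 0.09), the latter not called by DESeq2.

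**Figure D3:**
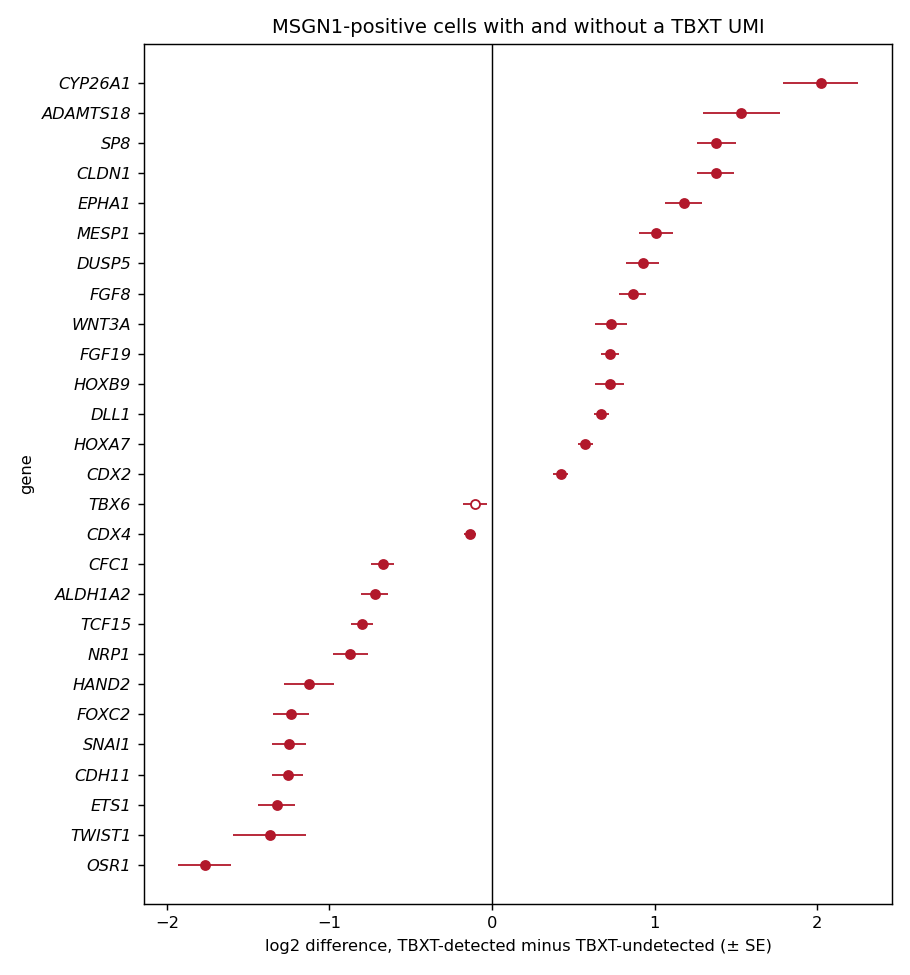
Log2 difference (cells with minus cells without a TBXT UMI after thinning, ± SE) of named genes within MSGN1-positive cells, fitted over the 4 libraries, with an open circle for an adjusted p of 0.05 or more. CYP26A1 (2.02) was furthest to the right and OSR1 (−1.77) furthest to the left, and TBX6 (−0.11) and its SE lay near 0.

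Levels across stages were described within MSGN1-positive cells, with no test, since each stage is 1 library. A gene with a symbol was followed where the higher of the 4S and 13S levels reached 50 CPM and the lower held at least 10 UMIs. Of these 2495 genes, 118 were higher at each successive stage, 40 of them by at least 2-fold from 4S to 13S, and 270 were lower at each stage, 48 of them by at least 2-fold. HOXA7 had the largest ratio of 13S to 4S among the rising genes, 32.9 (exact Poisson interval 29.3 to 37.0). It went from 34.2 CPM at 4S to 289, 726 and 1123 CPM, and in all other cells from 90.2 to 1048 CPM, a ratio of 11.6. GREB1, a growth-regulation gene, was at 4.40, 44.3, 122 and 132 CPM (ratio 30.0, 21.7 to 42.6), against 13.6 and 144 CPM at 4S and 13S in the other cells. PRLH (20.2, 13.9 to 30.5), KCNS3 (18.5, 13.2 to 26.7) and HOXD8 (12.2, 9.34 to 16.1) completed the rising genes, against ratios of 10.2, 9.70 and 7.51 in the other cells. Of the 8 FGF family genes of the list, the interval of the ratio lay above 1 for 5, below 1 for FGF19 (0.804, 0.739 to 0.875) and on both sides of 1 for 2. The largest ratios of 13S to 4S among them were those of FGF10, FGF18 and FGF8. These were 6.58 (5.39 to 8.09), 5.66 (5.05 to 6.37) and 4.50 (3.84 to 5.30), against 3.96, 3.68 and 3.69 in the other cells. The share of all genes with an interval above or below 1 was not computed, so the tally has no background. After thinning, FGF18 was detected in 8.75%, 23.6%, 29.7% and 42.1% of the cells.

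ALDH1A2 had the largest fall. Its levels were 311 (2683 UMIs), 44.5, 8.21 and 2.06 CPM (17 UMIs), a ratio of 4S to 13S of 151 (94.2 to 260). In all other cells it went from 245 to 67.4 CPM. The share of MSGN1-positive cells with ALDH1A2 after thinning was 43.5%, 8.39%, 1.72% and 0.503%. The fall was present with and without TBXT, from 250 to 2.68 CPM in cells with a TBXT UMI and from 405 to 1.54 CPM in cells without. Of the 14 genes of the retinoic acid list with a UMI at 4S or 13S, the interval of the ratio of 13S to 4S lay below 1 for 6, above 1 for CRABP2 (1.80, 1.32 to 2.46) and on both sides of 1 for 7. Among the lower genes RDH10 went from 58.8 to 6.54 CPM, DHRS3 from 23.6 to 1.69 CPM and STRA6, a retinol receptor, from 170 to 25.2 CPM. In all other cells the ratios of 13S to 4S of RDH10, DHRS3 and STRA6 were 0.597, 0.524 and 0.389. The share of all genes with an interval on 1 side of 1 was not computed for this list either.

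The other falling genes were CFC1, a co-receptor for Nodal, at 205, 154, 55.0 and 5.45 CPM (ratio of 4S to 13S 37.6, 28.0 to 51.8), the vascular receptor KDR at 54.7, 23.8, 8.91 and 2.06 CPM (26.6, 16.4 to 46.0), the blood and vessel factor GATA2 at 143, 71.0, 27.5 and 10.2 CPM (14.1, 11.3 to 17.8) and the ephrin EFNB2 at 51.2, 18.9, 8.41 and 4.24 CPM (12.1, 8.56 to 17.6). MESP1 went from 131 to 17.3 CPM, WNT8A from 50.3 to 5.57 CPM and GATA5, a cardiac and endodermal factor, from 84.0 to 9.68 CPM. The summed markers of lateral plate were at 172, 154, 84.7 and 53.5 CPM over the same stages and those of blood and vessel at 145, 174, 69.7 and 22.5 CPM. With cells that held a marker of another tissue left out, an alternative chosen after the data were seen, ALDH1A2 was at 379 CPM at 4S and 1.48 CPM at 13S, KDR at 30.2 and 1.78 CPM and GATA2 at 99.4 and 8.16 CPM.

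**Figure D4:**
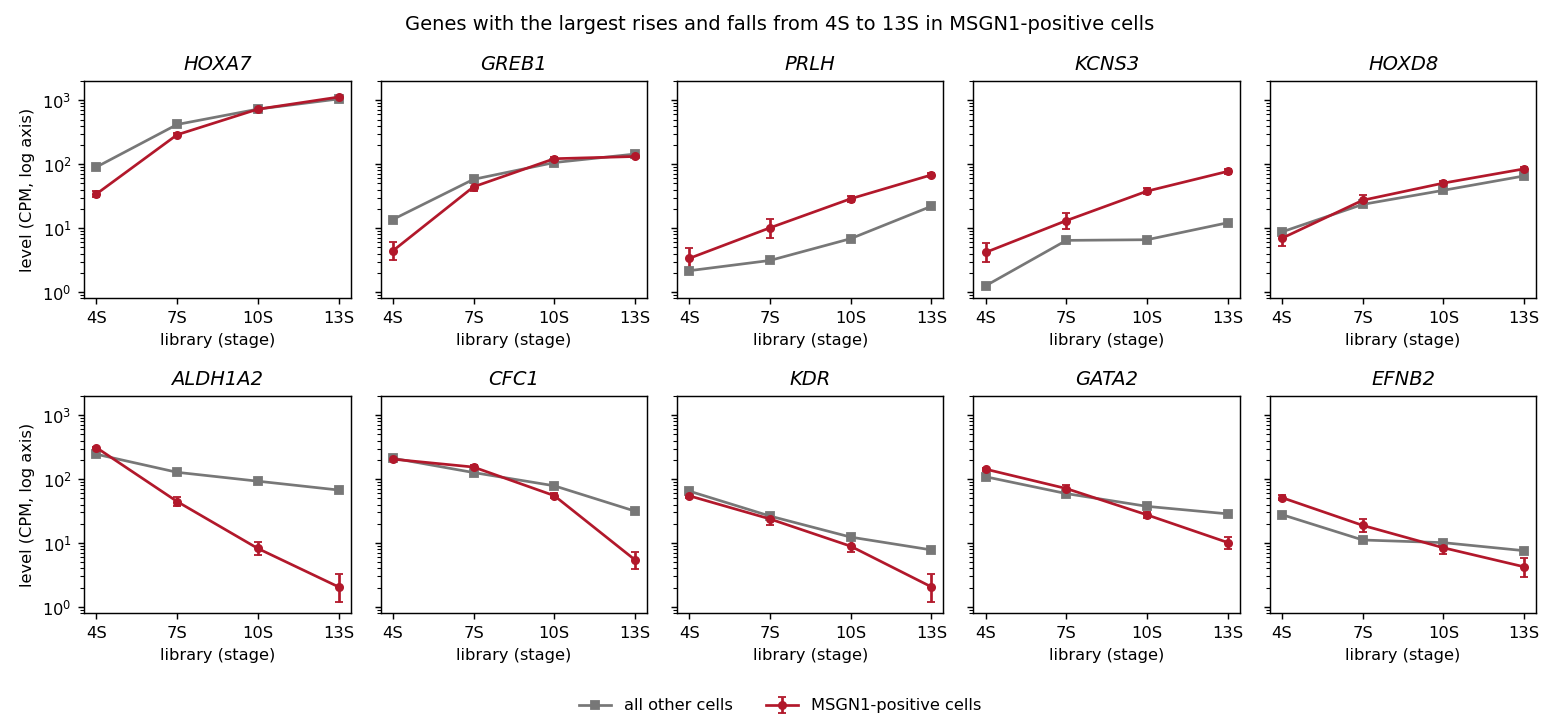
Level (CPM, log axis) of the 5 rising and 5 falling genes with the largest ratios between 4S and 13S, in MSGN1-positive cells (circles, bars are exact 95% Poisson intervals) and all other cells (squares). ALDH1A2 dropped from 311 to 2.06 CPM in MSGN1-positive cells and from 245 to 67.4 CPM in the other cells.

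HOX genes were summed by paralogue number, the position in the cluster that follows head-to-tail expression. Of 37 HOX genes in the matrix, a UMI was found in 25, 28, 28 and 30 from the earliest to the latest stage. Of the 28 with at least 10 UMIs, 26 were higher at 13S than at 4S and 14 were higher at each step. The same counts were not made over all genes at this limit. HOX1 genes were at 296, 307, 240 and 224 CPM, a ratio of 13S to 4S of 0.757 (0.713 to 0.804). HOX4 genes were at 161, 307, 399 and 553 CPM (3.44, 3.24 to 3.66), HOX7 genes at 116, 651, 970 and 1420 CPM (12.2, 11.5 to 13.0), HOX8 genes at 104, 216, 537 and 786 CPM (7.53, 7.02 to 8.08) and HOX9 genes at 30.8, 31.4, 117 and 358 CPM (11.6, 10.2 to 13.2). The ratios of HOX2, HOX3, HOX5, HOX6 and HOX10 genes were 1.08 (0.957 to 1.22), 2.90 (2.49 to 3.38), 1.26 (1.15 to 1.38), 3.79 (3.28 to 4.40) and 10.4 (5.26 to 23.6). HOX1 was thus lower at 13S and those from HOX3 to HOX10 higher, without a steady order in the size of the ratio, since HOX5 stood below its neighbours and HOX7 above HOX8. As a ratio, the largest step of the HOX7 genes was from 4S to 7S, and those of the HOX9 genes came after 7S. In all other cells the ratios of 13S to 4S from HOX1 to HOX10 were 0.604, 0.971, 2.34, 3.58, 1.51, 4.25, 7.77, 4.46, 9.83 and 13.0. The rise of the HOX genes over stages was therefore not particular to MSGN1-positive cells.

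HOXB9 was at 0.811 CPM at 4S, from 7 UMIs, then 9.29, 63.1 and 196 CPM (ratio 241, 117 to 601). In the other cells it went from 3.38 to 175 CPM. After thinning, it was detected in 0.24%, 2.04%, 12.1% and 33.2% of MSGN1-positive cells, against 9.05% of blood and vessel cells over all stages. The blood and vessel share pools 265, 165, 281 and 140 cells from 4S, 7S, 10S and 13S, so it is not matched for stage. HOXC8, HOXC9 and HOXC6 had 0 UMIs in MSGN1-positive cells at 4S, where 3 UMIs would be 0.348 CPM. At 13S they stood at 65.7, 48.0 and 21.1 CPM, 189, 138 and 60.6 times that limit. The lower ends of the counting intervals of the ratio of 13S to 4S were 153, 112 and 48.7. HOX11 to HOX13 genes were near the detection limit throughout, with the HOX13 sum between 0.847 and 1.58 CPM.

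**Figure D5:**
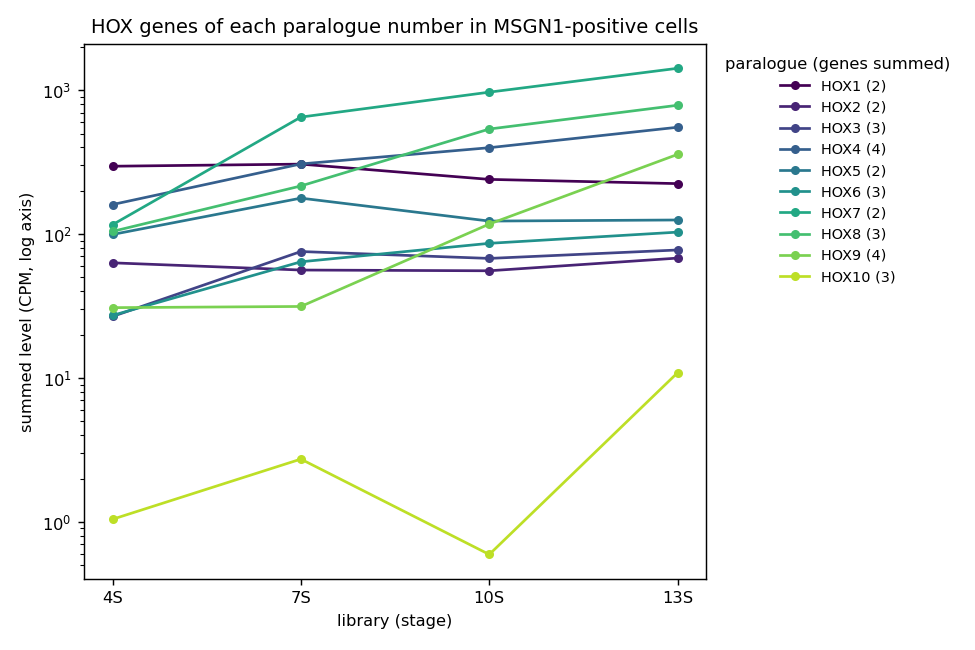
Summed level (CPM, log axis) of the HOX genes of each paralogue number in MSGN1-positive cells at 4S, 7S, 10S and 13S, 1 library each, with the number of genes summed in the legend. HOX1 went from 296 to 224 CPM while HOX9 went from 30.8 to 358 CPM. In all other cells, which are not drawn, HOX1 went from 209 to 126 CPM and HOX9 from 34.7 to 341 CPM.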

How the data were processed

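Whole caudal trunk tissue of chick embryos at 4S, 7S, 10S and 13S was dissociated and profiled with a droplet 3′ assay, 1 library per stage. The authors aligned reads to GRCg6a with Cell Ranger 4.0.0, counted UMIs over exons and introns, filtered cells in each stage by mitochondrial share, total counts and a doublet caller, and deposited raw UMI counts for 21328 genes and 27391 cells, which were used as deposited. No further doublets were called. Of the cells, 73 barcodes occurred in more than 1 library, and 23 of the MSGN1-positive cells carried such a barcode. The sums of MSGN1-positive cells held 8628199, 3660083, 10105047 and 8263188 UMIs at 4S, 7S, 10S and 13S.

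The chosen cells, the gene lists and the tests were fixed with earlier results of these data known. Genes to be named were the 12 higher and 8 lower genes with the largest log2 differences against all other cells, 6 each way in the other comparisons and 5 each way over stages (past the threshold, the same direction in 4 of 4 libraries and a mean of at least 20 CPM in the higher group), the 4 largest changes of each list and any gene that a sentence on a list needs. A gene that the rule names in the TBXT comparison is not reported here. Genes of the paragraphs on stages other than the 5 each way and the HOX genes were chosen after their values were seen. Counts were summed per library and group. Genes were filtered with filterByExpr, scaled with TMM and tested with edgeR 4.0.16 in R 4.3.3 (glmQLFit, glmQLFTest) with the library as a block, so that group sums from the same pooled embryos were paired. Same-library sums deviated together in every comparison (correlations 0.159 to 0.756). The genes that defined the groups went through the fits and the p-value adjustment with all others. They were left out of the counts of genes tested and called and of the ranked genes. Values per library are single, since each stage is 1 library and its replicates would be the stages. DESeq2 1.42.0, other scalings, filters and inclusion rules were run as alternatives. Thinning drew 2500 UMIs from each cell (seed 1). Intervals are 95% and were computed with scipy 1.17.1. The model script was tested on simulated counts. Sequences and genome positions were not used here.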

Additional observations from a re-analysis of the deposited data

Results flagged for a closer look

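In each library the level in MSGN1-positive cells was divided by the level in all other cells. This was done only for genes picked for the comparison with all other cells or for the stages, some after their values were seen. For 6 of these genes the ratio lay on opposite sides of 1 at 4S and 13S beyond its counting interval. Each ratio is from 1 library, and the difference between the stages was not tested. The share of all genes with such a change was not computed. HOXA7, ALDH1A2, GATA2 and EFNB2 were picked for their large ratios between 4S and 13S in MSGN1-positive cells, which favours such a change. ALDH1A2 was at 1.27 times the other cells at 4S and 0.0305 times at 13S. MESP1 went from 1.52 to 0.611, GATA2 from 1.31 to 0.356 and EFNB2 from 1.85 to 0.559. HOXA7 went the other way, from 0.379 at 4S to 1.07 at 13S, as did HOXB9, from 0.240 to 1.12.

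Of the 2012 cells of the 7S library with under 2500 UMIs, which no comparison used, 129 (6.41%, Clopper-Pearson interval 5.38 to 7.57%) otherwise met the rule for MSGN1-positive cells.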

How the results depend on the processing

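Each comparison has 4 pairs of sums, and stage, library and embryo pool cannot be told apart, so a change between stages carries no test. Low genes of SOX2/TBXT cells, 213 in all, were limited by depth. Without the replicate block, which dropped the pairing of sums from the same library, 91 genes were higher and 482 lower against all other cells, 102 and 101 against SOX2/TBXT cells, 363 and 570 against MEOX1/TCF15 cells, and 0 and 0 between cells with and without TBXT (175 of 8786 at an unadjusted p under 0.05, smallest adjusted p = 0.239, edgeR). Of 184 gene differences called in the text, 73 lost their call without the block, and 170 kept direction and call in each other alternative run. DESeq2 called 206 and 199 against SOX2/TBXT cells and 66 and 47 for TBXT. Scaling by totals gave 772 higher against all other cells. Cells chosen on thinned counts gave 142 and 100 against SOX2/TBXT cells. Under that choice FGFR1 stood at 0.036 against all other cells and HOXD8 at −0.70 against SOX2/TBXT cells.

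Leaving out 1 library gave 553 to 1352 higher and 867 to 1733 lower against all other cells, 243 to 466 and 167 to 393 against SOX2/TBXT cells, 552 to 1406 and 627 to 1441 against MEOX1/TCF15 cells, and 76 to 207 and 67 to 152 for TBXT. The lowest counts were those without the 10S library. Without the 13S library 274 and 214 were called against SOX2/TBXT cells, and without the 7S library 114 were lower for TBXT. Leaving out cells with a marker of another tissue, chosen after the data were seen, gave 1371 and 1574, 443 and 360, and 1251 and 1197.

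The shares of MSGN1-positive cells at 4S, 7S, 10S and 13S were 15.0%, 7.92%, 10.3% and 10.6% with at least 3 UMIs of MSGN1, 30.4%, 26.9%, 22.6% and 21.6% with at least 1, and 9.17%, 9.51%, 7.15% and 7.04% on thinned counts.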
